A study of Mus musculus with 7 samples.

Results

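Gfap-high astrocyte nuclei are the hippocampal nuclei that carried an astrocyte transcript profile together with several transcripts of Gfap, the intermediate filament protein of astrocytes. They were chosen from their own measured counts. A nucleus had more than 300 and fewer than 50000 transcripts, more than 400 genes and under 1% mitochondrial transcripts. At least 1% of its transcripts came from 7 astrocyte genes (Slc1a2, Slc1a3, Gpc5, Aqp4, Slc4a4, Plpp3 and Rorb), with at least 3 of them detected, and it had no transcript of the oligodendrocyte precursor gene Pdgfra. It had at least 2 Gfap transcripts, each counted once by its unique molecular identifier (UMI), and at least 5 Gfap transcripts per 10000. The rule took 1360 of 45138 nuclei (3.01%), or 24.9% of the 5453 nuclei that met all its terms other than those on Gfap. The astrocyte nuclei with no Gfap transcript, called Gfap-0 below, numbered 3250, and 843 lay between both classes.

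The study compared WT mice with Arctic48 mice (Arc), which are hemizygous for a human APP transgene with the Indiana, Swedish and Arctic mutations. Mice received PMX205, a cyclic peptide antagonist of the complement receptor C5aR1, at 20 μg/ml in drinking water, or plain water (veh), and were 10 months old at perfusion. The sample labels give 12 weeks of treatment, while the study's text starts the drug later and so describes a shorter course for mice of this age. Nuclei of each of the 4 groups (WT-veh and Arc-veh on water, WT-PMX and Arc-PMX on the drug) filled 6 first-round wells of 1 split-pool barcoding run, 3 from females (F1 to F3) and 3 from males (M1 to M3), and every well was spread over the same 7 sublibraries. The groups of the wells came from the deposited sample sheet. The transgene was present throughout life in the Arc groups, and its effect cannot be told apart from that of the plaques it leads to.

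Astrocytes take up glutamate and potassium, supply lipids to neurons and contact synapses and vessels with their processes. In injury, infection and around amyloid plaques they become reactive: they enlarge, build more intermediate filament from Gfap and vimentin, and transcribe acute-phase and complement genes, partly through receptors of the interleukin-6 family that signal by JAK kinases and STAT3. Some white matter and surface astrocytes hold much Gfap in the healthy brain as well.

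The label was checked against markers. Slc1a2 was detected in 99.9% of members, Gpc5 in 94.7% and Aqp4 in 65.5%, and all 3 belong to the rule. Of astrocyte genes outside the rule, Aldh1l1 was detected in 63.6% of members and in 39.6% of Gfap-0 nuclei, and Sox9 in 33.7% and 13.4%. Members were deeper than Gfap-0 nuclei, with a median of 2870.5 against 1468.5 transcripts, so such shares favour the members. Scaled to total transcripts, Aldh1l1, Sox9 and Ntsr2 were higher in members, while Gja1, Glul, Fgfr3, Gjb6 and Acsbg1 were lower. All 16 astrocyte markers, the rule's among them, summed to 294 per 10000 transcripts against 339 in Gfap-0 nuclei, with 7 higher and 9 lower in members. Summed markers of other cells stood at 20.1 per 10000 transcripts for neurons, 1.0 for microglia and 2.5 for oligodendrocytes, against 22.4, 1.6 and 6.4 in Gfap-0 nuclei. The ependymal list stood at 3.1 against 1.3, with 8 of its 10 genes higher in members, and its sum came mostly from Spag16, Spef2 and Cfap54 at 97.3, 92.7 and 96.9 CPM (transcripts scaled to a common total) against 48.8, 42.4 and 25.7. Its defining genes Foxj1 and Rsph1 were each at 2.33 CPM against 1.20 and 1.03, Tmem212 was at 0.64 against 1.37, and Ccdc153 was at 0 against 0.17. The pericyte list stood at 4.3 against 2.9, with 6 of its 10 genes higher in members. Among these were Atp13a5 at 229 against 129 CPM, Notch3 at 72.1 against 28.2, Myh11 at 3.82 against 1.37 and Rgs5 at 2.54 against 1.37. The 2 lower genes were Pdgfrb at 123 against 129 CPM and Abcc9 at 0.85 against 1.20, while Kcnj8 and Higd1b were at 0 in both classes. Of the 10 neuronal genes, 9 were lower in members, and the 1 higher gene, Kcnip4, gave a large part of the sum at 1171 against 572 CPM. A doublet score marked 13 members.

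Of the members, 320 held 2 Gfap transcripts, 239 held 3 and 801 held 4 or more, and the median was 15.9 and the highest value 97.4 per 10000. Just inside the threshold were 51 members at under 6 per 10000. Just outside it were 63 nuclei with at least 2 Gfap transcripts at 1.47 to 4.92 per 10000, and 780 nuclei with 1.

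The sequence before the transcription start is shown for Gfap, which defines the nuclei, and for Osmr and Lrriq1, which were higher in Arc members and whose windows hold a match to AP-1. Lrriq1 had 0 and 3 UMIs in the WT-veh and WT-PMX wells tested, against 159 and 132 in Arc-veh and Arc-PMX. It passed the low-count filter only through the Arc wells, which largely set its direction. The letters searched were TTCNNNGAA for STAT factors and TGANTCA for AP-1, both of which read the same on either strand. They occurred in 8.30% and 7.81% of all 32851 RefSeq promoter windows (GRCm38.p6), each 250 bases before and 50 after a start. Capitals mark a match. All 3 genes are on the minus strand, and the sequences are written 5′ to 3′ along the gene, at chr11:102897201-102897450, chr15:6874314-6874563 and chr10:103236323-103236572.
Gfap: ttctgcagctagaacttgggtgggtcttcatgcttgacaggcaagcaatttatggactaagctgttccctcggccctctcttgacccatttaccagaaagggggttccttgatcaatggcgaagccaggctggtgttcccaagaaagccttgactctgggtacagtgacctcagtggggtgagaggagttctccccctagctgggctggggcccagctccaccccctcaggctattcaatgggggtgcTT
Osmr: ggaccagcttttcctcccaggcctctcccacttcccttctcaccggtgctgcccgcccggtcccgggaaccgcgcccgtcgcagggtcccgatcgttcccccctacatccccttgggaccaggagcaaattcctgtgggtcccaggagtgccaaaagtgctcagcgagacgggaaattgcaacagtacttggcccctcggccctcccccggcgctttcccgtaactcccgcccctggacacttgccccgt
Lrriq1: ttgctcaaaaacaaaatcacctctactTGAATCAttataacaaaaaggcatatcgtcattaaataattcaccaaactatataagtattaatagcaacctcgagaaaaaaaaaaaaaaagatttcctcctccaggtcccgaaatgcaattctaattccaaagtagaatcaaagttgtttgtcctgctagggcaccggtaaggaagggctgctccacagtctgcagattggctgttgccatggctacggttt
The match of Gfap, to STAT, spans its start, so that only its first 2 letters fall in the printed stretch. The AP-1 match of Osmr lies after the start and that of Lrriq1 before it. Of the 8 named genes higher in Arc-veh than in WT-veh members, 6 had a window, of which 0 held the STAT letters and 1, Lrriq1, those of AP-1. In a wider set of 25 genes, the named genes higher in any of the 3 genotype contrasts with Gfap and 5 reactive genes added by choice, 20 had a window, of which 5 held the STAT letters and 5 those of AP-1, where 9.55% and 8.97% of all genes did. The set was chosen with its values known, so these shares are a description.

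Gfap-high nuclei made up a far larger share of astrocyte nuclei in Arctic than in WT mice. In the WT-veh wells the share was 1.55% at the lowest, 2.92% at the median and 9.54% at the highest, and in the WT-PMX wells it was 2.94%, 6.87% and 12.6%. In the Arc-veh wells it was 27.3%, 63.9% and 66.1%, and in the Arc-PMX wells 32.8%, 46.8% and 62.5%. Every Arc well lay above every WT well. The mean was 3.75% ± 2.99 (SD, n = 6) in WT-veh and 53.6% ± 17.6 in Arc-veh, a difference of 49.8 percentage points (adjusted p = 0.00433, two-sided exact permutation test over wells, adjusted over 4 comparisons, with the smallest p that 6 against 6 wells allow). On PMX205 the means were 7.35% ± 4.08 and 47.5% ± 13.8, a difference of 40.2 points (adjusted p = 0.00433, same exact test). Membership rests on Gfap, so this compares Gfap itself.

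PMX205 left no difference in this share that passed the test. Arc-PMX minus Arc-veh was -6.07 points (adjusted p = 0.459, exact permutation), and differences from -29.3 to 15.3 points were not rejected by that test at 0.05. The WT-PMX mean was 3.59 points above WT-veh (adjusted p = 0.156, exact permutation), with -1.0 to 8.2 points not rejected. Without WT-veh F2, the well at 9.54%, the latter became 4.75 points (adjusted p = 0.0404, exact permutation), and with a stricter threshold of 4 transcripts and 10 per 10000 it became 1.77 points (adjusted p = 0.0260, exact permutation).

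Depth moved with genotype, at a median of 2128 (water) and 2467.5 (PMX205) transcripts in WT members and 3119.5 and 2787 in Arctic members. After each astrocyte nucleus was thinned to 1000 transcripts, the share with at least 1 Gfap transcript was 12.6% ± 4.08 in WT-veh, 13.3% ± 3.71 in WT-PMX, 54.1% ± 9.22 in Arc-veh and 52.7% ± 11.2 in Arc-PMX (n = 6 each). This left out 455, 278, 109 and 116 shallower nuclei.

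**Figure D1:**
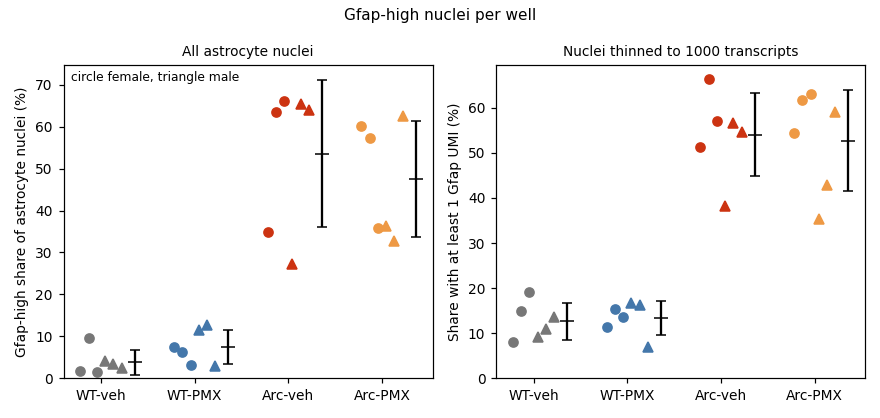
Gfap-high nuclei per well. Left, share of astrocyte nuclei (%) that were Gfap-high, and right, share (%) with at least 1 Gfap transcript after thinning to 1000 transcripts, with 1 point per well (circles female, triangles male) and black bars for mean and SD of 6 wells. The Arc wells start at 27.3% on the left, above the highest WT well at 12.6%.

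Members and Gfap-0 nuclei of the same well differed in further genes. This is a description with no test, since both classes were cut from the same counts. Over 18 wells with at least 10 nuclei of both classes, 83 of 3847 genes (2.16%) were higher in members in at least 90% of the wells and 83 (2.16%) were lower. Osmr, the oncostatin M receptor, was higher in 18 of 18 wells with a median log2 ratio of 1.80, and Sulf1 and Sulf2, which trim sulfate from heparan sulfate, had median log2 ratios of 2.03 and 1.70. Cd44, the hyaluronan receptor, had 1.99 and Vim, the filament partner of Gfap, 1.58, each in 17 of 18 wells.

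The lower genes included Gabbr2, a subunit of the GABA-B receptor, with a median log2 ratio of -1.82, Dcc, a netrin receptor, with -1.80, and Unc13c, a synaptic vesicle priming gene, with -1.79. Of lists, 6 of 15 measured filament, cytoskeleton and adhesion genes were higher and 0 lower, and 4 of 6 pan-reactive genes were higher (Aspg, Cd44, Osmr and Vim). Vim is in both lists and entered only through members. Over all wells its UMIs in Gfap-0 nuclei were 12 in WT-veh, 19 in WT-PMX, 8 in Arc-veh and 12 in Arc-PMX. The counts of both lists therefore support nothing about the lists. Of 19 homeostatic uptake and channel genes, 0 were higher and 4 lower (Mfge8, Slc6a11, Slc7a10 and Trpm3). Within nuclei of 1000 to 5000 transcripts alone, 62 genes were higher and 52 lower.

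**Figure D2:**
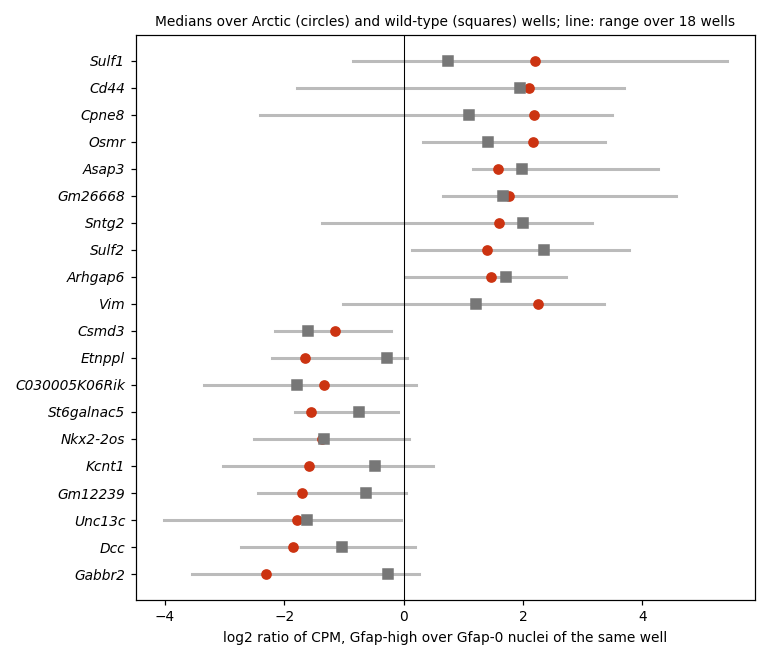
The 10 genes with the largest median log2 ratio in each direction between Gfap-high and Gfap-0 nuclei of the same well. Circles are medians over Arctic wells, squares over WT wells, and lines span 18 wells. Osmr is above 0 along its whole line and Unc13c below it.

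To compare gene expression between genotypes within members, counts were summed per well over members, for wells with at least 10 of them. These were only 2 WT-veh wells (F2 and M1), 4 WT-PMX wells (F1, F2, M1 and M2) and all 12 Arc wells, with 21919 to 146111 summed transcripts in WT and 103712 to 680390 in Arc wells. WT members lay nearer the threshold, with a median of 2 (WT-veh) and 3 (WT-PMX) Gfap transcripts, or 11.3 and 14.1 per 10000, against 5 (Arc-veh) and 4 (Arc-PMX), or 17.4 and 15.9 per 10000, and the part of this in the gene differences was not tested. Levels below are in CPM of a well's summed transcripts with TMM normalization. A gene was called at an adjusted p under 0.05 by edgeR's quasi-likelihood test, over 5431 genes. On water, 51 genes (0.939%) differed between Arc-veh and WT-veh members, 38 higher and 13 lower. On PMX205, 248 genes (4.57%) differed between Arc-PMX and WT-PMX, 193 higher and 55 lower. Of these, 42 were called in both comparisons, which is 82.4% of the first and 16.9% of the second list, and the comparisons share no well. All 51 calls on water had the same sign on PMX205, where 60.2% of all genes tested did. Some higher genes had few transcripts in WT members and passed the low-count filter only through the Arc wells. Gadl1, Ip6k3 and Lrriq1, for example, had 0 UMIs in WT-veh and 8, 1 and 3 in WT-PMX. The filter largely set the sign of such genes in both comparisons, so the shared calls and signs are a description.

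A contrast of both Arctic with both WT groups, added after the data had been seen, called 368 genes (6.78%), 285 higher and 83 lower. The number on water fell to 11 without WT-veh F2 and to 16 without WT-veh M1, on PMX205 to 99 without WT-PMX M2, and over both to 154 without WT-veh F2 and 233 without WT-veh M1. With size factors by relative log expression the splits were 30 higher and 18 lower on water, 165 and 67 on PMX205 and 255 and 110 over both. With DESeq2 they were 42 and 43, 152 and 86, and 218 and 139. The list counts below are over both treatments unless said otherwise, and stand beside these 6.78% and a median log2 fold change of 0.10 for all genes tested. A list gene with few transcripts in WT members reached the test only because its counts were high in the Arc wells, so its direction was largely set by the low-count filter. The lists with such genes (10 or fewer UMIs over the WT wells tested) are named with their number, and their counts of calls support nothing about the list. Of the 61 list genes called over both treatments, 32 lost the call when some single well was left out, 28 of them without WT-veh F2 and 17 without WT-veh M1.

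Enox1, Csmd1 and Grm5 had the smallest adjusted p on water. In the mm10 build (GRCm38) they lie at chr14:77156248-77721763, chr8:15892538-17535385 and chr7:87583981-88135063. Enox1, a cell surface oxidase gene, stood at 370 and 231 CPM in the WT-veh wells, at 429, 399, 432 and 312 in the WT-PMX wells, from 1448 to 1960 in Arc-veh wells and from 1093 to 1827 in Arc-PMX wells. The lowest Arc well was above the highest WT well. On water the log2 fold change was 2.39 ± 0.27 (SE, adjusted p = 3.32e-07, edgeR) and on PMX205 2.05 ± 0.19 (adjusted p = 1.29e-09, edgeR).

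Csmd1, which encodes a membrane inhibitor of complement, stood at 698 and 265 CPM in WT-veh wells, at 811, 319, 566 and 908 in WT-PMX wells, from 2300 to 2751 in Arc-veh and from 1974 to 3380 in Arc-PMX wells. The log2 fold change was 2.24 ± 0.30 on water (adjusted p = 8.18e-06, edgeR) and 1.86 ± 0.21 on PMX205. Grm5, the metabotropic glutamate receptor that couples to calcium release, stood at 271 and 198 CPM in WT-veh, at 167, 279, 312 and 227 in WT-PMX, from 819 to 1163 in Arc-veh and from 703 to 1161 in Arc-PMX wells. Its log2 fold change was 1.94 ± 0.30 on water (adjusted p = 0.000121, edgeR). For both genes the Arc and WT wells did not overlap. No well left out ended these 3 calls on water.

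Of the interleukin-6 family pathway, Osmr was at 57.0 and 66.1 CPM in WT-veh, at 71.6, 160, 104 and 42.5 in WT-PMX, from 351 to 714 in Arc-veh and from 330 to 645 in Arc-PMX wells. It was higher on water by 3.04 ± 0.55 on the log2 scale (adjusted p = 0.00114, edgeR). Sbno2, a transcriptional regulator induced by this family, was at 85.4 and 33.1 CPM in WT-veh, at 47.7, 319, 74.4 and 92.2 in WT-PMX, from 400 to 949 in Arc-veh and from 361 to 1028 in Arc-PMX wells, with a log2 fold change on water of 3.07 ± 0.62 (adjusted p = 0.00349, edgeR). Neither gene's Arc wells overlapped the WT wells. Over both treatments, 4 of 12 tested members of the JAK-STAT list were higher, among them Stat3, Osmr and Sbno2, and 1 lower (Cntfr, the receptor subunit for ciliary neurotrophic factor, whose call was lost without WT-veh F2 at an adjusted p of 0.0703 by edgeR). The list's median log2 fold change was 0.03, and 1 of the 12 had few UMIs in WT.

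Of 12 pan-reactive genes 7 reached the test and were higher (S1pr3, Cd44, Osmr, Cp, Serpina3n, Aspg and Vim), but 4 of them (S1pr3, Cp, Serpina3n and Vim) had few UMIs in WT. In the tested wells of WT-veh and WT-PMX these were 1 and 1 for S1pr3, 1 and 0 for Cp, 0 and 3 for Serpina3n and 1 and 8 for Vim. In Arc-veh and Arc-PMX the same genes had 177 and 168, 151 and 206, 150 and 122, and 163 and 151. On water Osmr alone of them passed. Cd44 was at 114 and 0 CPM in WT-veh, at 95.4, 120, 149 and 35.5 in WT-PMX, from 229 to 358 in Arc-veh and from 135 to 353 in Arc-PMX wells, and its lowest Arc-PMX well lay below the highest WT well. Its log2 fold change over both treatments was 1.83 ± 0.34 (adjusted p = 0.000312, edgeR). Without WT-veh F2 the calls of Serpina3n, Vim and Cp over both treatments were lost (adjusted p = 0.104, 0.131 and 0.0672, edgeR).

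Of complement and acute-phase genes, 12 reached the test, 4 of them with few UMIs in WT (Cp, C3, Serping1 and the protease inhibitor Serpina3n), and the genes called were C4b, Serping1, Csmd1, A2m, Cp and Serpina3n, all higher. C4b, a component of the classical pathway, was at 413 and 463 CPM in WT-veh, at 358, 399, 1176 and 567 in WT-PMX, from 670 to 2214 in Arc-veh and from 497 to 1322 in Arc-PMX wells. The wells on water did not overlap and those on PMX205 did. The log2 fold change was 1.48 ± 0.44 on water (adjusted p = 0.101, edgeR), 0.52 ± 0.30 on PMX205 (adjusted p = 0.419, edgeR) and 1.0002 ± 0.26 over both (adjusted p = 0.0123, edgeR, and 0.239 without WT-veh F2).

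C3, the central complement component, had 1.98 ± 0.68 over both (adjusted p = 0.0710, edgeR). After thinning to 1000 transcripts, C4b was detected in 61.9% of 588 members on water and 54.4% of 559 on PMX205 in Arctic mice and in 32.2% of 59 and 36.1% of 108 in WT mice, against 1.43% of Arc neurons. Of Gfap-0 nuclei, it was detected in 34.6% of 298 on water and 25.1% of 363 on PMX205 in Arctic mice. In WT mice these shares were 11.2% of 854 and 11.4% of 921. Lcn2, a lipocalin often used to mark reactive astrocytes, had 0, 0, 3 and 16 UMIs in the 4 groups and did not reach the test.

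Of 16 tested filament, cytoskeleton and adhesion genes, 2 had few UMIs in WT (Vim and Actn1). The genes called were all higher and included Vim, Dst, Cnn3 and Nhs. Dst, a linker of filaments and microtubules, stood at 1581 and 1025 CPM in WT-veh, at 1455, 1117, 1563 and 1085 in WT-PMX, from 2458 to 3427 in Arc-veh and from 2425 to 3075 in Arc-PMX wells, with no overlap. Its log2 fold change over both was 1.09 ± 0.13 (adjusted p = 5.35e-08, edgeR).

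Of matrix genes, 4 of 17 tested were higher (Sulf1, Col27a1, Col4a5 and Col4a6) and 5 lower (Ncan, Bcan, Tnc, Sparcl1 and Gpc6), and 3 had few UMIs in WT, among them Col4a6 with 0 in both WT groups. Without WT-veh F2 the calls were lost for Ncan, Bcan, Tnc and Gpc6 (adjusted p = 0.580, 0.296, 0.386 and 0.624, edgeR), which left Sparcl1 alone as lower, and for Col27a1 and Col4a5 (adjusted p = 0.0990 and 0.159, edgeR). Sulf1 was at 28.5 and 33.1 CPM in WT-veh, at 0, 39.9, 179 and 70.9 in WT-PMX, from 426 to 866 in Arc-veh and from 515 to 1156 in Arc-PMX wells. Sgcd, a sarcoglycan, was at 28.5 and 33.1 CPM in WT-veh, at 0, 39.9, 59.5 and 128 in WT-PMX, from 276 to 832 in Arc-veh and from 376 to 635 in Arc-PMX wells. Neither overlapped between genotypes. With 3 or fewer UMIs in WT-veh, the counting ratio on water was 17.5-fold for Sulf1 (95% exact interval 5.98 to 85.1) and 17.0-fold for Sgcd (5.80 to 82.6). Gadl1, a decarboxylase gene, had 0 UMIs in WT-veh and 384 in Arc-veh, which makes it at least 6.59-fold higher against a floor of 3 counts over the group. Such intervals and floors cover counting error only. Gadl1 had 8 UMIs in the WT-PMX wells tested, so it reached the test only through the Arc wells. Its direction was largely set by the low-count filter.

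Some lower genes encode receptors or channels, as do some higher genes such as Grm5 and Osmr. Grin3a, an NMDA receptor subunit, stood at 342 and 331 CPM in WT-veh, at 382, 239, 164 and 411 in WT-PMX, from 55.3 to 178 in Arc-veh and from 19.6 to 194 in Arc-PMX wells. Its log2 fold change was -2.18 ± 0.44 on water (adjusted p = 0.00386, edgeR) and -1.48 ± 0.31 on PMX205, where the highest Arc well was above the lowest WT well. Kcnj3, an inward rectifier potassium channel, had -1.41 ± 0.35 on water, Gria1, an AMPA receptor subunit, -1.55 ± 0.36, and Tenm4, a teneurin of cell adhesion, -1.61 ± 0.32. Lsamp, a cell adhesion gene, stood at 22315 and 19571 CPM in WT-veh, from 16327 to 18144 in WT-PMX, from 10685 to 12117 in Arc-veh and from 9000.03 to 13552 in Arc-PMX wells, without overlap, with a log2 fold change of -0.86 ± 0.14 on water (adjusted p = 0.000182, edgeR). Gria1 stood at 889 ± 753 CPM (SD, n = 2) in WT-veh and at 264 ± 61 (n = 6) in Arc-veh. Without WT-veh M1, which leaves 1 WT-veh well, its call over both treatments was lost. The log2 fold change was then -0.70 ± 0.25, against -1.31 ± 0.23 with that well. Of the 7 neuronal markers tested, 6 had a negative log2 fold change over both treatments, where 40.5% of all genes tested did, with a list median of -0.80 over both and -0.55 on water, although only Gria1 was called lower and Kcnip4 was called higher. Pooled over all wells, the markers summed to 19.1 (water) and 19.3 (PMX205) per 10000 transcripts in WT and to 20.4 and 20.0 in Arc members. Kcnip4 alone gave 524 and 585 CPM of this in WT and 1229 and 1246 CPM in Arc members. Of the 2 WT-veh wells tested, M1 stood at 32.9 per 10000, above every other well, and F2 at 14.7. The WT-PMX wells tested stood at 13.3 to 21.3 and the Arc wells at 12.6 to 24.9. The part of neuronal transcripts in the fall of Grin3a, Gria1 and Kcnj3 was not tested.

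Of 19 tested homeostatic genes, 0 were higher and 4 lower over both treatments, among them Gja1, Htra1 and Grm3, and the list's median log2 fold change was -0.28. The calls of Htra1 and Grm3 were lost without WT-veh F2 (adjusted p = 0.149 and 0.297, edgeR) and that of Gja1 without WT-veh M1 (adjusted p = 0.457, edgeR). Of 18 lipid and cholesterol genes, 2 were higher (Abca1, a cholesterol exporter, and Gpam, an enzyme of glycerolipid synthesis) and 1 lower (Apoe, the main lipid carrier of the brain), with a list median of -0.33. Apoe had -0.82 ± 0.22 over both (adjusted p = 0.0124, edgeR, and 0.468 without WT-veh F2), and Gpam 1.01 ± 0.13 (adjusted p = 5.25e-07, edgeR). Of markers of other cells, 2 of 3 tested ependymal genes (Spag16 and Cfap54) and 2 of 3 tested pericyte genes (Atp13a5 and Notch3) were higher, with list medians of 1.97 and 1.37. Of these, Notch3 had few UMIs in WT. Atp13a5 had 1.37 ± 0.28 (adjusted p = 0.000848, edgeR) and Notch3 1.87 ± 0.50 (adjusted p = 0.0136, edgeR). Without WT-veh F2 the calls of Notch3 and Cfap54 were lost (adjusted p = 0.273 and 0.183, edgeR), and that of Notch3 also without WT-PMX M2 (adjusted p = 0.0880, edgeR). Summed pericyte markers stood at 2.6 and 3.1 per 10000 in WT and 4.8 and 4.2 in Arc members, and ependymal markers at 1.3 and 1.2 in WT and 3.3 and 3.3 in Arc members. The part of such cells in the results was not tested.

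Of 13 A-1 genes 4 reached the test, 3 of them with few UMIs in WT, and of 13 A-2 genes 3 did, 2 of them with few. Called higher were Ggta1 and Stat3, and of the genes with few WT UMIs Serping1, the C1 inhibitor (0 in WT-veh and 1 in WT-PMX), Fkbp5 (0 and 1), Tgm1 (0 and 0) and Cd109 (2 and 3). Fkbp5 and Cd109 lost the call with a well left out, at adjusted p up to 0.252 and 0.169 (edgeR). That of Tgm1 was lost without WT-veh F2 (adjusted p = 0.0979, edgeR). Of 6 interferon and antigen presentation genes, 3 of them with few UMIs in WT, the genes called higher included Nlrc5, which has few, and Rnf213, whose call was lost with any of several wells left out (adjusted p up to 0.224, edgeR). Of 8 iron and metal genes, 1 of them with few UMIs in WT, 2 were higher, Cp, which oxidizes iron for export, and Slc39a14, an importer of zinc and iron, at 2.12 ± 0.30 (adjusted p = 2.43e-06, edgeR).

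Of 18 growth factor and receptor genes 2 were higher, Ntrk2, the BDNF receptor, and Angpt1, an angiopoietin, at 1.20 ± 0.21 (adjusted p = 7.77e-05, edgeR). The list's median was -0.15, and 6.78% of all genes tested were called. Ntrk2, at 0.39 ± 0.12 (adjusted p = 0.0467, edgeR), lost its call in most fits with a well left out (adjusted p up to 0.251, edgeR). Of 15 genes for adhesion with synapses 2 were higher (Ncam2 and Dlgap1) and 3 lower (Lsamp, Kirrel3 and Ctnna2), with a list median of 0.03. Without WT-veh F2 the calls of Dlgap1, Kirrel3 and Ctnna2 were lost (adjusted p = 0.0836, 0.237 and 0.642, edgeR), which left Ncam2 higher and Lsamp lower. Of 6 radial glia genes 0 were higher and 1 lower (Thbs4, at an adjusted p of 0.2496 by edgeR without WT-veh M1). Of 8 genes of fibrous astrocytes 2 were higher (Cd44 and Vim, which has few UMIs in WT) and 2 lower, Agt, which encodes angiotensinogen, and Myoc, which encodes myocilin. The call of Agt was lost without either WT-veh well (adjusted p = 0.104 and 0.160, edgeR). Myoc was at 85.4 and 298 CPM in WT-veh, at 191, 0, 74.4 and 199 in WT-PMX, from 0 to 37.9 in Arc-veh and from 0 to 53.5 in Arc-PMX wells, with -2.51 ± 0.46 over both (adjusted p = 0.000266, edgeR, and 0.0535 without WT-veh M1).

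**Figure D3:**
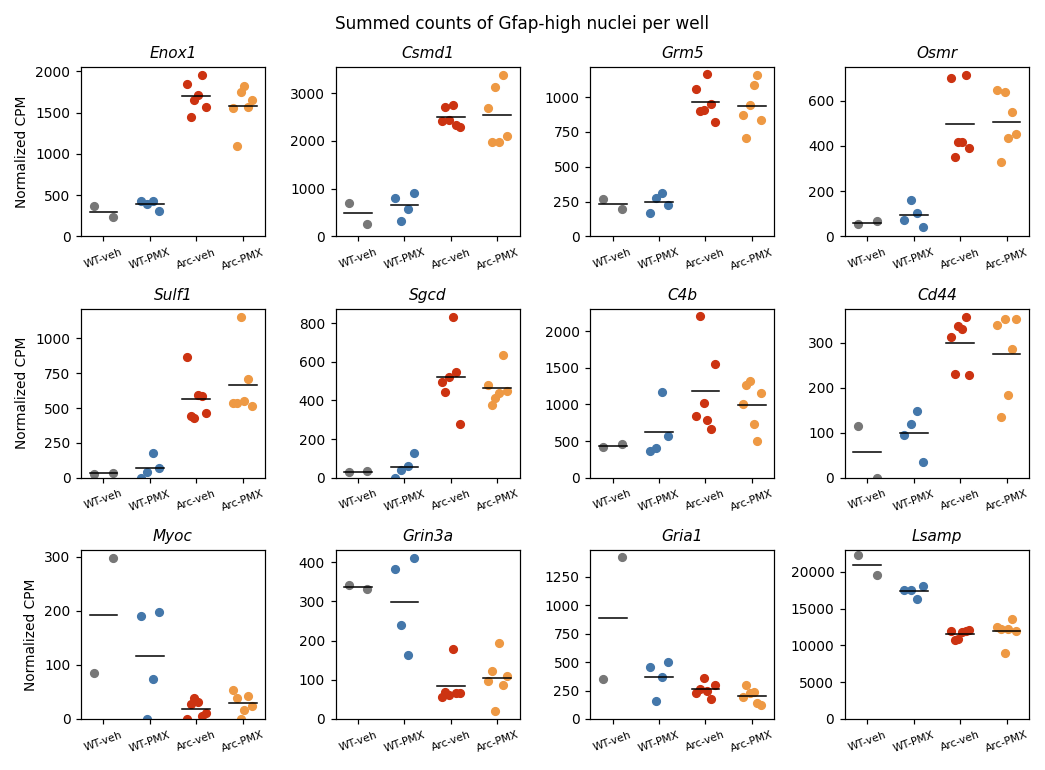
Normalized CPM of summed Gfap-high nuclei for 12 genes, with 1 point per well in each of the 4 groups. Enox1 reached 432 at most in WT wells and 1093 at least in Arc wells, and C4b overlapped between genotypes on PMX205.

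The genotype difference was then compared between members and Gfap-0 nuclei of the same wells. It differed for 92 of 5827 genes (1.58%), more positive in members for 52 and more negative for 40, by edgeR's test of the interaction. With DESeq2 the split was 27 and 50, with relative log expression 44 and 59, and 51 genes were left without WT-veh F2 and 57 without WT-PMX M2. Csmd1 differed by 2.05 ± 0.18 on the log2 scale between genotypes in members and by 0.46 ± 0.16 in Gfap-0 nuclei, an interaction of 1.48 ± 0.20 (adjusted p = 3.69e-07, edgeR). For Grm5 the values were 1.94 ± 0.18 and 0.45 ± 0.20, and for Enox1 2.22 ± 0.17 and 0.92 ± 0.12.

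Nkain2, a gene linked to the sodium pump, was higher in Arc members by 2.12 ± 0.29, against -0.22 ± 0.24 in Gfap-0 nuclei (interaction adjusted p = 1.26e-10, edgeR). Grin3a had -1.83 ± 0.27 in members and 0.32 ± 0.20 in Gfap-0 nuclei (interaction adjusted p = 3.69e-07, edgeR), and Gria1 -1.31 ± 0.23 and 0.20 ± 0.13.

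Other genes differed between genotypes in both classes, with no interaction that passed the test. Osmr had 2.89 ± 0.32 in members and 1.85 ± 0.23 in Gfap-0 nuclei, and its interaction of 0.90 ± 0.42 missed the threshold (adjusted p = 0.396, edgeR). Ggta1, a glycosyltransferase of the A-1 list, had 1.88 ± 0.20 and 2.45 ± 0.19 (adjusted p = 0.174, edgeR). C4b had 1.0002 ± 0.26 and 1.64 ± 0.18 (adjusted p = 0.0828, edgeR).

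**Figure D4:**
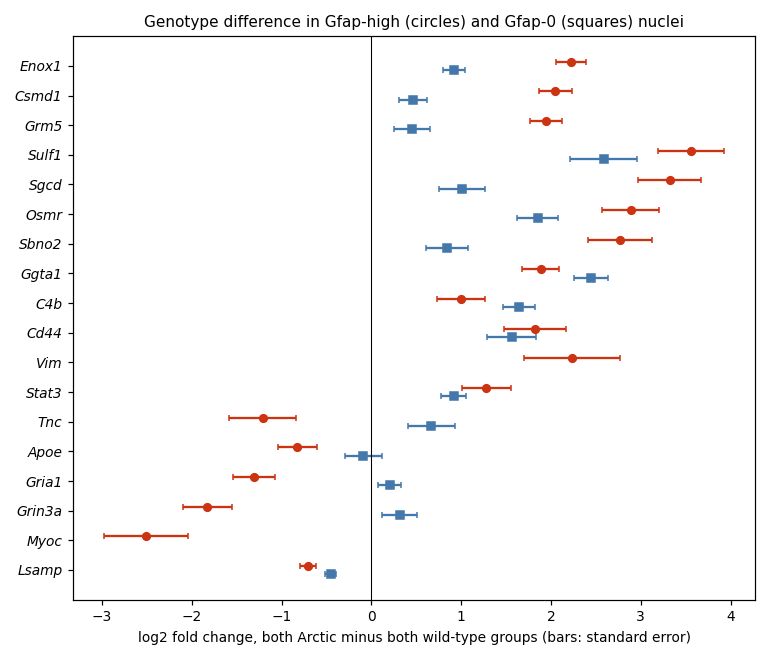
Log2 fold change between both Arctic and both WT groups in Gfap-high (circles) and Gfap-0 nuclei (squares), with bars for the standard error. Circle and square are far apart for Csmd1 (2.05 and 0.46) and on opposite sides of 0 for Grin3a (-1.83 and 0.32), while genes with no square were not tested in Gfap-0 nuclei.

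PMX205 changed 1 of 5431 genes (0.0184%) in Arctic members. This was AY036118, a transcript often linked to ribosomal RNA. It stood at 663, 729, 5540, 22748, 551 and 646 CPM in the Arc-veh wells and from 439 to 911 in the Arc-PMX wells, so that wells F3 and M1 of Arc-veh were high. The log2 fold change was -3.08 ± 0.56 (adjusted p = 0.0126, edgeR), and 0 genes were called with DESeq2 or without any one of Arc-veh M1 and Arc-PMX F1, M1, M2 and M3. Fos, an immediate early gene, had 1.05 ± 0.29 and did not pass the test. C4b had -0.26 ± 0.22, Osmr 0.03 ± 0.18, Enox1 -0.11 ± 0.13 and Cp 0.68 ± 0.35, and no list had a called gene.

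In WT members PMX205 changed 0 of 5431 genes (0.0%) by edgeR and 0 by DESeq2. By edgeR 274 of the 5431 had an unadjusted p under 0.05, where chance alone gives about 1 in 20. The effect of PMX205 differed between genotypes for 0 of 5431 genes (0.0%) by edgeR and 0 by DESeq2. Here 267 had an unadjusted p under 0.05 by edgeR, again near the chance rate of 1 in 20. Both comparisons rest on 2 WT-veh wells.

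**Figure D5:**
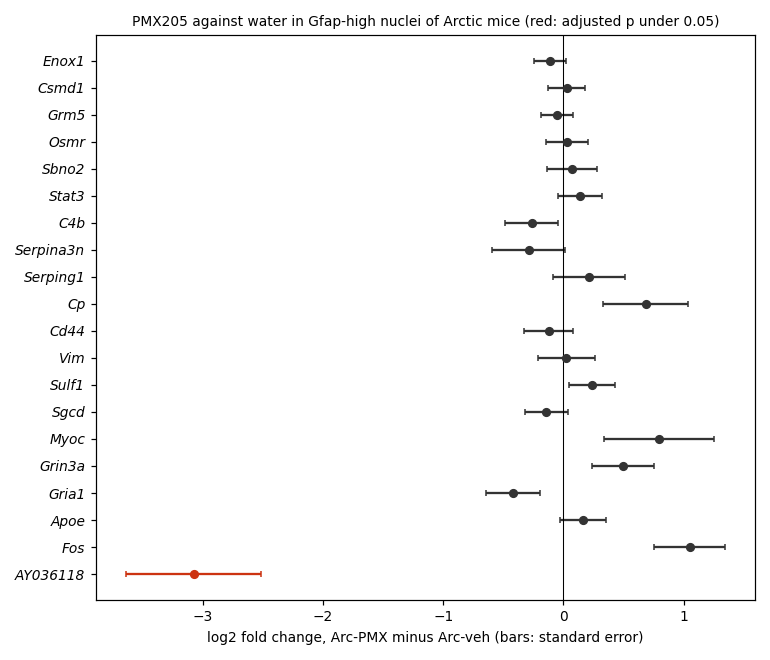
Log2 fold change of Arc-PMX minus Arc-veh in Gfap-high nuclei for 20 genes, with bars for the standard error. AY036118 at -3.08 is the one gene that passed the test, while Enox1 lies at -0.11 and Osmr at 0.03.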

How the data were processed

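Hippocampal nuclei of 24 wells were measured by split-pool single-nucleus RNA sequencing. The authors made the deposited counts, raw transcripts (UMIs) per barcode and gene without normalization or a filter on barcodes, with the split-pipe pipeline on the mm10 build. The 1516119 barcodes of 7 sublibraries and 48 wells include wells of sorted single cells, which were not used here. Counts of a well were summed over sublibraries. Of the passing nuclei, 8449 had a barcode combination that another sublibrary also held, 14 of the members among themselves. The study left out 1 sample of the WT group because its expression was that of an Arctic mouse. The well is not named in the sources used here, so all wells were kept. App in neurons was 454 to 582 CPM in WT and 568 to 838 CPM in Arc wells, so the ranges overlap. Gfap in astrocyte nuclei was 94.5 to 271 CPM in WT and 697 to 1867 CPM in Arc wells, so no WT well reached the Arc range.

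Members, gene lists and tests were chosen with earlier results of these data known. Member counts were summed for wells with at least 10 members and tested with edgeR 4.0.16 (R 4.3.3): TMM, filterByExpr by group, glmQLFit and glmQLFTest, 4 groups in one fit, sex as covariate, Benjamini-Hochberg adjustment at 0.05. The rule's genes were left out of the tests. Class ratios used a pseudocount of 10 CPM and genes with a mean of at least 50 CPM in either class. Shares were tested by exact permutation of wells in scipy 1.17.1. Doublets were scored by Scrublet in scanpy 1.11.5 (score above 0.25) and kept. The script was tested on simulated data.

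Named genes were, per contrast, the 8 largest changes each way among calls with a mean log2 CPM of at least 5 and the same sign in both sexes, the 5 smallest p where fewer than 5 were called, 4 per list by p on water, the 10 largest class ratios each way, and genes the paper names. Other list members given as examples, and those shown by well, were chosen after their values were seen. Wells are separate mice by the study's methods. Alternatives were relative log expression, DESeq2 1.42.0, no filter, no sex term, a replicate block, other minimum numbers of nuclei, doublets or nuclei with 2 microglial UMIs left out, and each well left out. Some genes counted in the lists are not reported here by name.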

Additional observations from a re-analysis of the deposited data

Results flagged for a closer look

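A single well stood apart from the others of its group in 11 of 59 groups of wells examined, where chance alone flags about 1 in 20. For the share of Gfap-high nuclei this was the highest WT-veh well (F2) at 9.54%. For AY036118 it was Arc-veh M1 at 22748 CPM and Arc-PMX F3 at 911 CPM.

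The well Arc-PMX F3 was also the highest of its group for Sulf1 at 1156 CPM and Vim at 186 CPM and the lowest for Lsamp at 9000.03 CPM. It had 103712 summed transcripts, the fewest of the Arc wells. Enox1 was lowest in Arc-PMX F2 at 1093 CPM, Sulf1 highest in Arc-veh F1 at 866 CPM and Grin3a highest in Arc-veh M1 at 178 CPM. In WT-PMX, Sbno2 was highest in F2 at 319 CPM and Serpina3n in M1 at 44.6 CPM. Both rest on few counts, with 28 UMIs of Sbno2 and 3 of Serpina3n over all WT-PMX wells tested.

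The genotype difference was unlike in Gfap-high and Gfap-0 nuclei for 92 genes by the test of the difference itself.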

How the results depend on the processing

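The share differences between genotypes kept direction and call under every alternative, from 47.3 to 55.1 points on water and 37.2 to 43.1 on PMX205 with 1 well left out, and at 33.9 and 24.3 points with the stricter threshold. The PMX205 differences with 1 well left out ranged from -11.3 to -3.13 points in Arctic and 2.54 to 4.75 in WT mice, and after thinning to 1000 transcripts they were -1.32 and 0.71. In WT mice the stricter threshold gave 1.77 points past the test. Leaving out 1 well gave 11 to 56 calls on water, 99 to 263 on PMX205, 154 to 376 over both, 0 to 1 for PMX205 in Arctic mice and 51 to 123 for the difference between classes. With DESeq2, 85 genes were called on water and 0 for PMX205 in Arctic mice. Without a filter on low counts these were 78 and 7, with 1 for PMX205 in WT mice, 3 for the difference between its effects and 295 between classes. A minimum of 20 members per well gave 15 calls on water and 242 over both, and a minimum of 4, chosen after seeing the data, 124 on water. The stricter threshold gave 560 class differences (294 higher, 266 lower) in fewer wells, Arctic only, and left no WT wells for the tests, so these were not run. The causes of the other moves were not tested.

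Of 5976 alternative values for 228 named results, 5355 kept their call, 618 lost it and 3 reversed: Rasgrf1 without WT-veh F2, at 2.06 over both and 1.96 between classes (lowest with 1 well left out -1.82 and -2.17), and Lsamp between classes without the filter, at 0.10. Deviations of Arc-veh and Arc-PMX wells with the same replicate number had correlations from -0.08 to 0.28. Pairing of wells was not tested. With a replicate block 40 genes were called on water, 266 on PMX205, 317 over both and 1 for PMX205 in Arctic mice. The precision of the WT groups is limited by their 64 and 116 members.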
